A study of Homo sapiens with 8 samples.

Results

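The control AB8/13 libraries are the 4 of the 8 libraries in this study whose cells had received an shRNA that targets no gene, and they were chosen by their labels alone. The study compared these cells with cells given an shRNA against ATOH8, a basic helix-loop-helix transcription factor, whose libraries are not used here. AB8/13 is an established, conditionally immortalised human podocyte line that carries transgenes for a temperature-sensitive SV40 large T antigen and for telomerase. All were expanded at 33 °C and kept at 37 °C for 5 days for differentiation. A lipid reagent carried the shRNA into them, and no untransfected cells stand beside them. Polyadenylated RNA was sequenced from RNA with an integrity number above 7.0. The series text calls the 4 libraries biological replicates, but nothing says whether they came from separate cultures, so the spread between them may be partly technical. A line in culture also lacks the capillary wall, the filtrate and the neighbouring cells of a glomerulus, which limits it as a model.

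Podocytes wrap the glomerular capillaries from outside and close the kidney's filter with a slit diaphragm built from nephrin, Neph proteins and their partners. Mature podocytes have left the cell cycle, keep an actin-rich foot process cytoskeleton and maintain their identity through transcription factors such as WT1 and LMX1B. The parietal epithelial cells that line the opposite wall of Bowman's capsule arise from the same progenitors and keep nephron genes such as PAX2, PAX8 and CLDN1.

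The 4 libraries held 21108695 to 27109043 counts, of which mitochondrially encoded genes took 4.37% to 5.09% and the 10 most abundant genes 8.16% to 8.91%. Between 24154 and 25081 genes had a count in a library. In the following, a gene is called expressed where it had at least 1 CPM (counts per 1000000 counts of the library) in every library, and near zero where it had under 0.1 CPM in every library. The remaining genes lie between. By these limits 12391 of 19887 protein-coding genes (62.3%) were expressed and 4706 (23.7%) were near zero, 3173 of them with no count in any library. Each count of expressed or near-zero members of a gene list below is to be read beside these shares. A count of 0 in a single library allows a level of up to 0.111 to 0.142 CPM, and over the 4 libraries together of up to 0.0298 CPM. Levels of different genes are compared in TPM, which sets transcripts on the same kind of scale and divides each count by the length of the gene's annotated exons, overlaps counted once. With the length of the longest transcript 10 of 203 expressed genes named here moved by over 1.5 times in TPM, and with that of the median transcript 147 of 203. Part of the latter is a shift shared by all genes, because each choice of length also changes the TPM total. An order of genes or a ratio of their levels thus holds for exon lengths unless more is said. The SD of a ratio does not cover the choice of length. The median expressed protein-coding gene stood at 24.8 TPM. Errors are SD over the 4 libraries (n = 4), and intervals and floors cover counting error only.

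The defining markers of mature podocytes were split, while a wider podocyte list given below was mostly expressed. Only 5 of the 13 genes taken as defining podocytes were expressed, against 62.3% of all protein-coding genes, and 3 of the 13 were near zero, against 23.7%. Fewer cells with a gene and less RNA per cell cannot be told apart in such bulk libraries. LMX1B (chromosome 9), a transcription factor of the podocyte and the limb, had 0 counts in all 4 libraries. NPHS1 (ENSG00000161270.19, chromosome 19), which encodes nephrin, had 2, 0, 0 and 0 counts in replicates 1 to 4, a pooled level of 0.0199 CPM with an exact 95% Poisson interval of 0.00241 to 0.0718. Nephrin, the core protein of the slit diaphragm, was thus at or near the floor of detection in every library.

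Of the other defining podocyte genes, some were low and some were clearly present. PTPRO, a receptor tyrosine phosphatase of foot processes, had 2, 8, 4 and 2 counts, CLIC5, a cytoskeletal partner of ezrin, had 9, 4, 8 and 5, and THSD7A, an antigen of membranous nephropathy, had 8, 5, 3 and 10. These 3 genes lay between the limits, each with 10 or fewer counts in every library. PODXL, the sialomucin podocalyxin, was at 9.85, 9.35, 9.38 and 7.99 CPM, and SYNPO, which encodes the actin-associated protein synaptopodin, was at 17.1, 15.6, 18.002 and 17.9 CPM. PLA2R1, the main antigen of membranous nephropathy, was at 21.03, 22.1, 20.2 and 22.5 CPM. NPNT, which encodes the integrin ligand nephronectin, was at 26.8, 28.9, 27.6 and 28.3 CPM. All 4 genes were well above the limit of 1 CPM in every library. All 13 defining markers together summed to 82.6 to 84.3 CPM.

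**Figure D1:**
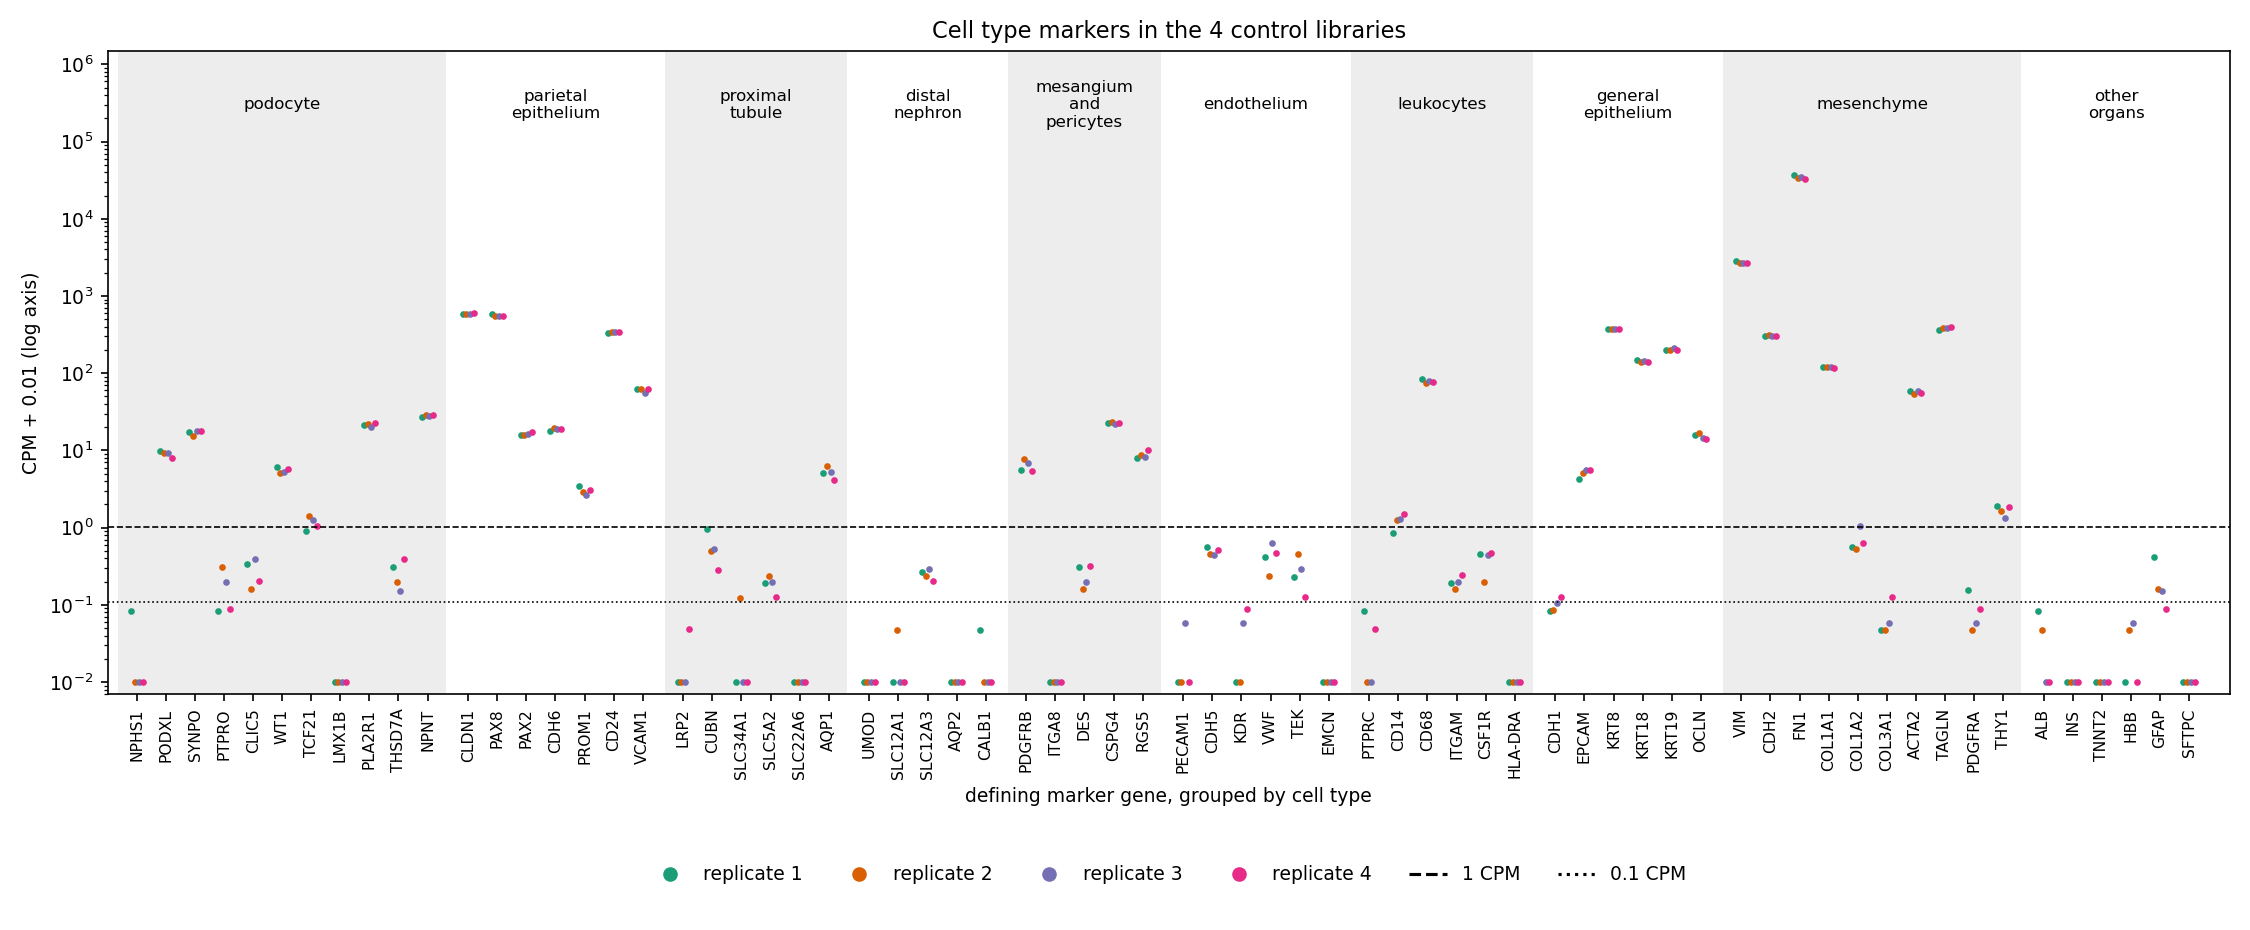
CPM plus 0.01 on a log axis for genes that define each cell type, a few of them not shown, with 1 point per control library and lines at 1 and 0.1 CPM. LMX1B lies at 0 in all 4 libraries, while all 7 parietal epithelial markers and 7 of the 10 mesenchymal markers lie above 1 CPM in every library.

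A wider list of 43 podocyte and slit diaphragm genes had 32 members expressed, 74.4% beside 62.3% of all protein-coding genes. Of the 43, 3 were near zero, against 23.7% of all protein-coding genes. Near zero beside NPHS1 was TRPC6, a calcium channel mutated in inherited glomerulosclerosis, with 0, 0, 0 and 1 counts. The members with the highest levels per length were cytoskeletal genes that most cells express. MYH9, non-muscle myosin IIA, was at 1324 ± 57.5 TPM, ACTN4, an actin crosslinker, at 653 ± 15.8 TPM, and EZR, the membrane linker ezrin, at 469 ± 17.5 TPM. KIRREL1, the slit diaphragm protein Neph1, followed at 314, 305, 307 and 302 TPM, and its range overlapped with that of ARHGDIA (302 ± 3.25 TPM), a regulator of the actin cytoskeleton. Adaptors and motors of the foot process were also expressed, among them CD2AP (130 ± 4.92 TPM), MYO1E (95.6 ± 2.70 TPM) and the formin INF2 (48.3 ± 1.35 TPM). Of the other Neph genes, KIRREL3 reached 2.83 CPM over the pooled counts and KIRREL2 had 0, 2, 4 and 1 counts. The polarity gene CRB2, the guidance receptor gene ROBO2, DDN and SEMA3G each had 12 to 24 counts over the 4 libraries together. Of nephrin and Neph1 the libraries thus held Neph1, KIRREL1, above the limit and nephrin below it.

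Of 38 listed transcription factors of nephron and podocyte 18 were expressed, 47.4% beside 62.3% of all protein-coding genes. Near zero were 10 of the 38, beside 23.7% of all protein-coding genes. PAX8 (ENSG00000125618.17, chromosome 2), a paired-box factor of the renal lineage, led the list at 302, 293, 292 and 286 TPM, with replicate 1 highest. WT1 (ENSG00000184937.14, chromosome 11), the zinc finger factor that podocytes retain for life, was at 5.76, 4.81, 5.05 and 5.43 TPM, from 167, 135, 112 and 149 counts. The level of PAX8 was 55.9 ± 4.10 times that of WT1 on the TPM scale, and 28.9 ± 1.73 times that of PAX2 (10.2 ± 0.402 TPM). With the longest or median transcript these ratios were 75.7 or 131 for WT1 and 34.2 or 42.5 for PAX2. PAX8 and WT1 both have antisense partners, and as no source used here says whether counting used the strand, reads from the partners cannot be told apart. TCF21, a factor of podocyte and stromal progenitors, was at 0.885, 1.39, 1.23 and 1.05 CPM, and replicate 1 alone kept it from being called expressed.

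Around PAX8 stood factors of the renal vesicle and of the renal stroma. KLF6 (171 ± 6.33 TPM), a zinc finger factor found in many tissues, and FOXD1 (98.9 ± 4.69 TPM), a forkhead factor of stromal progenitors and podocytes, followed PAX8 in the list. FOXC1 (30.8 ± 2.00 TPM), TBX18 (23.9 ± 1.24 TPM), LHX1 (20.3 ± 1.00 TPM), FOXC2 (18.6 ± 0.739 TPM) and SALL1 (17.7 ± 0.561 TPM) were expressed in every library. SIX2, the factor of the uncommitted cap mesenchyme, had 4, 8, 3 and 5 counts, and the tubule factor HNF4A had 0. IRX1, IRX2 and EMX2, further factors of nephron patterning, had no count, and the podocyte factor KLF15 had 6, 7, 4 and 6. ATOH8, the gene under study, was at 6.46, 6.01, 5.78 and 4.96 CPM in these cells, where it was not targeted.

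Every listed marker of the parietal epithelium was expressed, 15 of 15. CLDN1, a sealing claudin, was at 609, 620, 633 and 637 TPM, and the hyaluronan receptor gene CD44 was at 614 ± 16.9 TPM, a range that overlapped with it. The surface sialoglycoprotein gene CD24 was at 426 ± 10.3 TPM and the keratin gene KRT19 at 336 ± 13.4 TPM. Of the 7 defining markers PROM1, which encodes CD133, was lowest per length at 1.57 ± 0.161 TPM, from 93, 76, 56 and 79 counts, and CDH6, a cadherin of the early nephron, was at 5.84 ± 0.231 TPM. VCAM1, an adhesion molecule for leukocytes, was at 61.6, 61.9, 55.7 and 61.9 CPM, with replicate 3 below the others. The 7 defining markers summed to 1580 to 1593 CPM in the 4 libraries, most of it from CLDN1, PAX8 and CD24 (means of 589, 559 and 340 CPM). CD44, CD24 and the keratins are also expressed by many other epithelial and cultured cells.

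Tubule markers were mostly low, with 6 of 21 proximal and 1 of 18 distal markers expressed. The endocytic receptor gene LRP2 (megalin) had 0, 0, 0 and 1 counts, the organic anion transporter gene SLC22A6 and the distal genes UMOD and AQP2 had none, and SLC12A1 had 1. Among the proximal markers expressed were HAVCR1 (72.7 ± 2.26 TPM), the injury marker KIM-1, GGT1 (56.9 ± 3.44 TPM), an enzyme of glutathione turnover, and ANPEP (22.3 ± 1.76 TPM), an aminopeptidase. AQP1, a water channel of proximal tubule and endothelium, was at 5.02, 6.34, 5.21 and 4.07 CPM. CUBN, the endocytic receptor cubilin, had 26, 13, 11 and 7 counts and lay between the limits. CLDN16, a paracellular magnesium channel, was the expressed distal member, at 2.27 ± 0.415 TPM, and it fell under the limit when that was set at 2 CPM. The defining markers summed to 4.50 to 7.17 CPM for the proximal tubule and to 0.194 to 0.295 CPM for the distal nephron.

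Markers of other cells of the glomerulus were mixed. Of 14 mesangial and pericyte markers 8 were expressed, 57.1% and so near the 62.3% of all protein-coding genes. Near zero were 3 of the 14, beside 23.7% of all protein-coding genes. SERPINE2, a protease inhibitor, was at 25.5 ± 1.00 TPM, ABCC9 and KCNJ8, subunits of a potassium channel of pericytes, were at 11.7 ± 0.616 and 7.496 ± 0.347 TPM, and the proteoglycan gene CSPG4 was at 10.6 ± 0.239 TPM. PDGFRB, the receptor of mesangial cells and pericytes, was at 5.61, 7.66, 6.92 and 5.47 CPM, while the mesangial integrin gene ITGA8 had no count. The 6 defining markers of this group summed to 36.7 to 39.8 CPM.

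None of the 6 defining endothelial markers was expressed, and they summed to 1.13 to 1.42 CPM. EMCN had no count, PECAM1 had 1, and the VEGF receptor gene KDR had 0, 0, 1 and 2. Of the 17 genes on the wider endothelial list EHD3 (20.5 ± 1.00 TPM), EGFL7, SOX17 and ROBO4 were expressed, the last 3 at 16.2 ± 1.45, 6.48 ± 0.945 and 5.48 ± 0.522 TPM. Of 17 leukocyte markers CD68 and CD74 were expressed, at 78.9 ± 4.04 and 71.2 ± 0.327 CPM. CD68 encodes a lysosomal protein and CD74 the class II invariant chain, whereas PTPRC, the pan-leukocyte gene, had 2, 0, 0 and 1 counts and the class II gene HLA-DRA had 0. The 6 defining leukocyte markers summed to 76.6 to 85.4 CPM, nearly all from CD68. Of 25 markers of other organs 15 were near zero, with no count for INS, TNNT2 or SFTPC, and the nervous system genes MBP (13.9 ± 0.386 TPM) and SYT1 (4.78 ± 0.475 TPM) were expressed. Of 388 olfactory receptor genes, which serve here as a gauge of background, 376 were near zero and 3 were expressed, OR12D2 the highest of them at 13.2 ± 1.16 TPM. The part of other cells in the levels above was not tested.

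**Figure D2:**
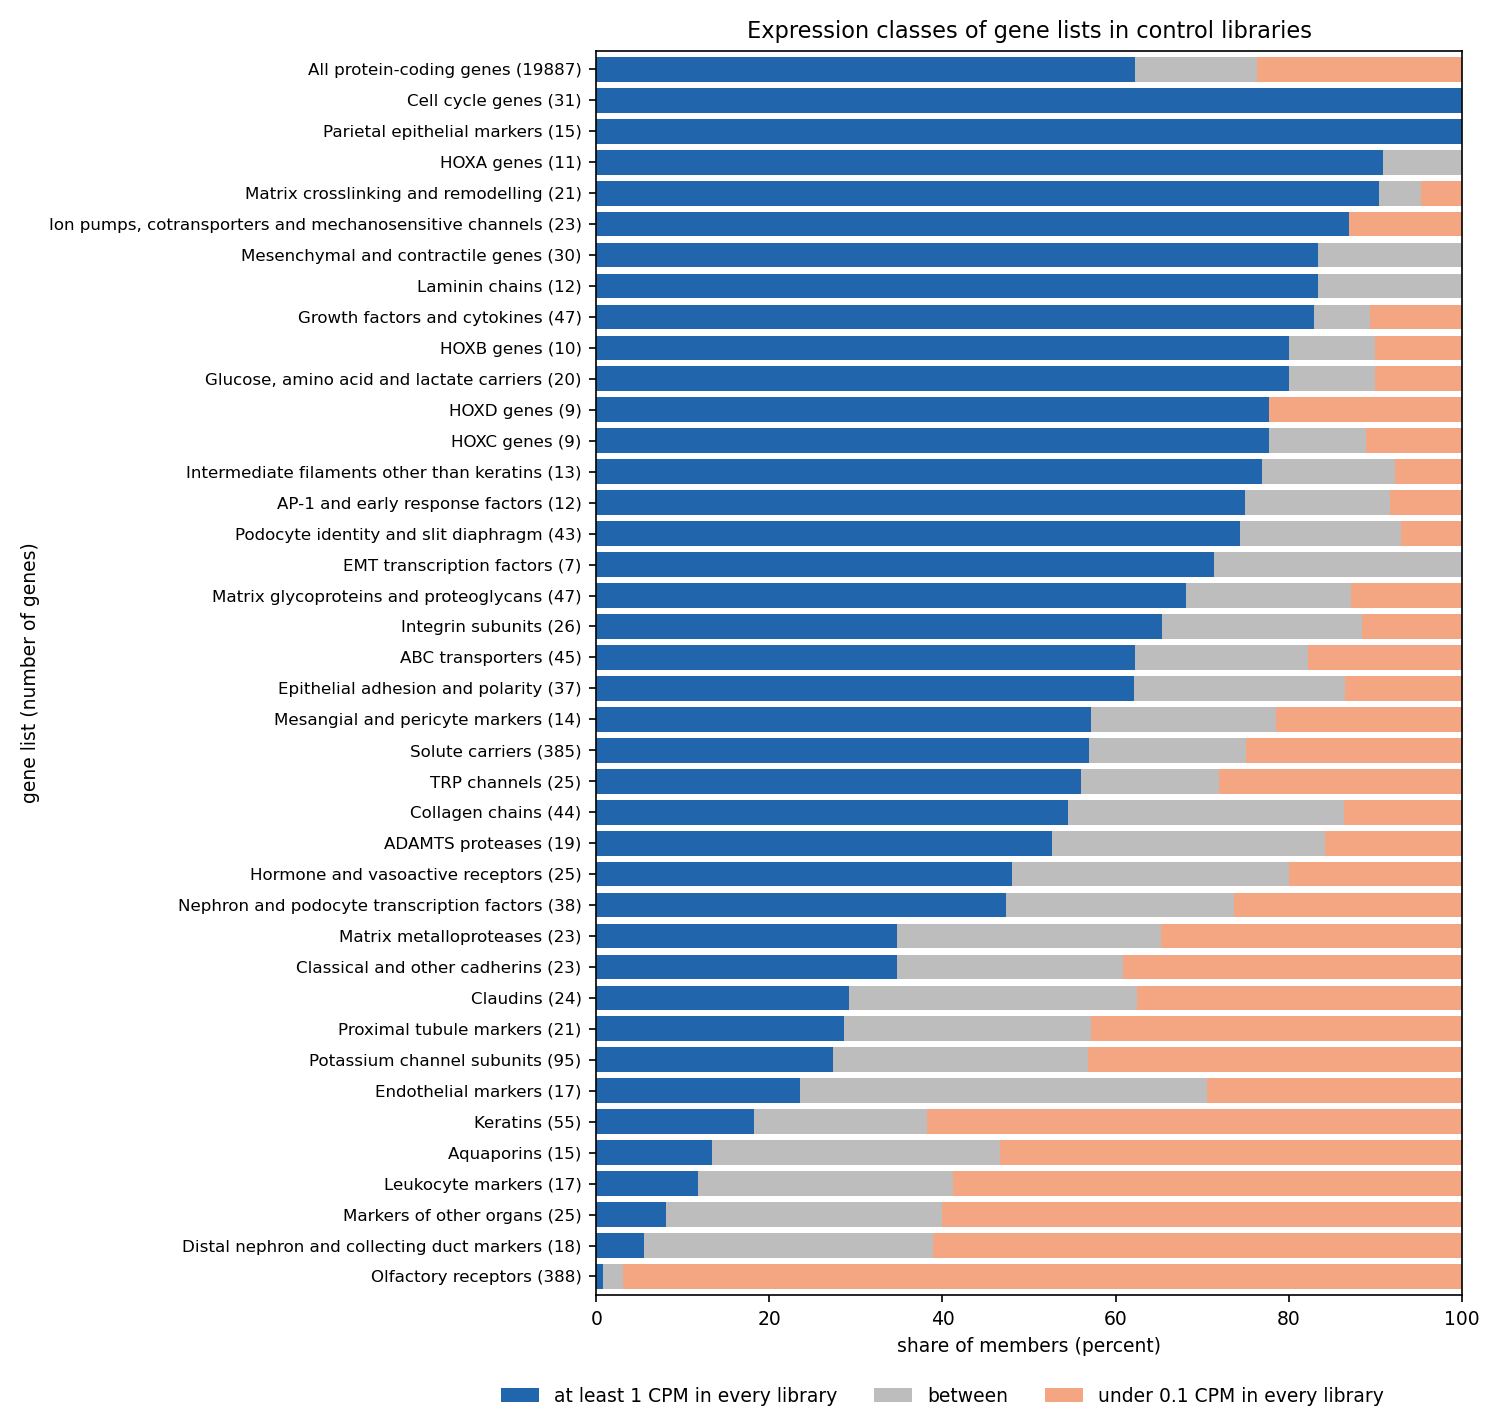
Share of each gene list, in percent, that was expressed (at least 1 CPM in every control library), between the limits, or near zero (under 0.1 CPM in every library), with the number of genes in brackets. All protein-coding genes, at 62.3% expressed, head the plot, cell cycle and parietal lists reach 100%, and olfactory receptors close it with 3 of 388.

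The cells combined simple-epithelial keratins with mesenchymal cytoskeleton and adhesion genes. VIM, the intermediate filament protein vimentin, was at 2109, 2009, 2058 and 2021 TPM, and KRT8, a simple-epithelial keratin, was at 207, 213, 214 and 208 TPM. The level of VIM was 9.75 ± 0.329 times that of KRT8 on the TPM scale, and 7.85 or 6.39 times with the longest or median transcript. Of 55 keratin genes 10 were expressed and 34 were near zero, with KRT19, KRT8, KRT18 (172 ± 5.06 TPM) and KRT7 (127 ± 6.72 TPM) the highest. KRT5 and KRT14, the pair of stratified epithelia, had 3 and 0 counts in all. The list of other intermediate filaments was led after VIM by the lamin genes LMNB2 (188 ± 1.30 TPM), LMNA (147 ± 4.23 TPM) and LMNB1 (133 ± 4.44 TPM), and NEFL, a neurofilament gene, reached 82.2 ± 1.88 TPM. The level of DES, the muscle filament gene desmin, rested on 8, 4, 4 and 8 counts.

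Among 23 cadherins, the calcium-dependent adhesion molecules that join like cells, 8 were expressed. CDH2, N-cadherin, was at 308, 314, 306 and 302 CPM, whereas CDH1, E-cadherin, had 2, 2, 2 and 3 counts (0.0900 ± 0.0200 CPM). N-cadherin was high in every library and E-cadherin near the floor in every library. CDH13, a cadherin without a cytoplasmic tail, was at 154 ± 4.30 TPM and CDH11, a mesenchymal cadherin, at 12.3 ± 0.346 TPM. CDH2 was 19.5 ± 0.476 times above CDH11 per exon length, but 11.5 times with the longest and 5.56 times with the median transcript. Of 24 claudins 7 were expressed. CLDN12 (52.7 ± 1.17 TPM) and CLDN4 (29.5 ± 0.794 TPM) followed CLDN1, and CLDN5, the claudin of endothelia, had no count.

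Of 37 epithelial adhesion and polarity genes 23 were expressed (62.2%, beside 62.3% of all protein-coding genes). The desmosome genes DSG2 (170 ± 2.28 TPM), DSP (122 ± 5.68 TPM) and JUP (114 ± 4.37 TPM), the junctional adhesion gene F11R (116 ± 5.21 TPM) and the polarity gene PARD3 (104 ± 1.51 TPM) were the highest. EPCAM, an epithelial adhesion molecule, was at 4.32, 5.14, 5.50 and 5.54 CPM, and OCLN, a tight junction protein, at 15.3 ± 1.13 CPM. The epithelial transcription factor genes GRHL2, OVOL1 and OVOL2 had 0, 3 and 2 counts in all, and the splicing factor gene ESRP1 had 6 whereas ESRP2 was at 12.1 ± 0.313 CPM. The defining markers of general epithelium summed to 725 to 753 CPM, carried by KRT8, KRT19 and KRT18.

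Of 30 mesenchymal and contractile genes 25 were expressed (83.3%, beside 62.3% of all protein-coding genes) and none was near zero. TAGLN and TPM1, actin-binding proteins of smooth muscle and stress fibres, were at 380 ± 20.01 and 374 ± 16.5 TPM, and the activated leukocyte adhesion gene ALCAM was at 391 ± 5.09 TPM. ACTA2, smooth muscle actin, was at 74.1 ± 3.55 TPM. PDGFRA, the receptor of fibroblasts, had 4, 1, 1 and 2 counts, and THY1, a fibroblast and mesangial surface protein, had 51, 44, 28 and 48. Of the 7 factors that drive epithelial-mesenchymal transition 5 were expressed (71.4%, beside 62.3% of all protein-coding genes). SNAI2 was at 27.5 ± 0.932 TPM, ZEB1 at 24.96 ± 0.383 TPM, ZEB2 at 14.6 ± 0.312 TPM, TWIST1 at 12.2 ± 0.768 TPM and SNAI1 at 3.22 ± 0.531 TPM. TWIST2 and PRRX1, both factors of limb and facial mesenchyme, had 10 and 17 counts in all and lay between the limits.

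FN1 (ENSG00000115414.19, chromosome 2), which encodes fibronectin, took more counts than any other gene. FN1 had 990642, 907677, 723965 and 835053 counts, or 36543, 34072, 34297 and 32378 CPM, and was highest in replicate 1 and lowest in replicate 4. Per length FN1 stood at 7696 ± 362 TPM, and its range overlapped with that of the iron store gene FTL (7467 ± 188 TPM). FTH1 (5352 ± 76.9 TPM), the other ferritin chain, and the actins ACTB (4957 ± 109 TPM) and ACTG1 (3991 ± 83.0 TPM) followed. With the length of the longest or the median transcript FTH1 stood above FTL. FN1 then stood 1.95 or 7.48 times above FTL, so the overlap of their ranges holds for exon lengths only. The 20 highest genes further held SAA1 (3420 ± 141 TPM), an acute phase protein, IFI6 (2855 ± 161 TPM), an interferon-induced protein, and HLA-B (2632 ± 109 TPM), a class I antigen with close homologues. EEF1A1 (3621 ± 208 TPM), an elongation factor, is uncertain, because its retrocopy EEF1A1P5 was itself counted at 4756 ± 142 TPM. Among long noncoding genes ENSG00000284803, an unnamed gene, had 1283, 1101, 829 and 1338 counts (559 ± 67.9 TPM), and its range lay above that of NORAD, a sponge of Pumilio proteins, at 404 ± 12.4 TPM.

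Of 47 matrix glycoprotein and proteoglycan genes, FN1 included, 32 were expressed (68.1%, beside 62.3% of all protein-coding genes) and 6 were near zero. THBS1, thrombospondin-1, was at 1681, 1801, 1806 and 1627 TPM, SPARC at 1082 ± 34.5 TPM, CCN1 at 939 ± 21.01 TPM and SPP1, osteopontin, at 594 ± 23.4 TPM. AGRN, the heparan sulphate proteoglycan agrin of the glomerular basement membrane, was at 398 ± 11.9 TPM, and HSPG2, perlecan, at 111 ± 7.42 TPM. The linker gene NID1 was at 79.6 ± 2.88 TPM and NID2 at 3.63 ± 0.284 TPM. LUM, a small proteoglycan that spaces collagen fibrils, was at 254, 263, 258 and 290 CPM, and DCN, its relative, at 13.8, 15.4, 15.2 and 19.4 CPM. Both were highest in replicate 4. ELN, elastin, had 2, 2, 1 and 0 counts, and FBLN1 had 18 in all.

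The collagen IV chains of the early basement membrane were far above those of the mature glomerular one. COL4A1 was at 301, 317, 327 and 308 TPM and COL4A2 at 317, 325, 341 and 305 TPM, ranges that overlapped. COL4A3, COL4A4 and COL4A5, the chains that podocytes deposit in the mature glomerular basement membrane, were at 1.15 ± 0.194, 6.36 ± 0.537 and 14.2 ± 0.902 TPM. COL4A1 was 278 ± 46.6 times above COL4A3 and 22.1 ± 0.929 times above COL4A5 on the TPM scale, and the order held with either transcript length tried. In all 24 of 44 collagen genes were expressed (54.5%, beside 62.3% of all protein-coding genes). Among them were COL18A1 (162 ± 5.44 TPM) of basement membranes, COL7A1 (133 ± 10.5 TPM) of anchoring fibrils and COL8A1 (68.1 ± 3.70 TPM).

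The fibrillar collagens were unbalanced. COL1A1, the alpha-1 chain of collagen I, was at 119, 119, 121 and 117 CPM, from 11971 counts in all. COL1A2, the partner chain with which it forms the usual trimer, had 15, 14, 22 and 16 counts, and COL3A1 had 1, 1, 1 and 3. The level of COL1A1 was 212 ± 56.0 times that of COL1A2 on the TPM scale, with a range of 132 to 258 over the libraries and a value of 166 with the longest transcript as length. COL5A1 (16.5 ± 0.155 TPM), COL5A2 (40.4 ± 2.06 TPM) and COL11A1 (59.5 ± 2.24 TPM), chains of the minor fibrillar collagens, were expressed in every library.

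Laminin chains, which assemble as alpha, beta and gamma trimers, showed 10 of 12 genes expressed (83.3%, beside 62.3% of all protein-coding genes). The 12 genes together summed to 962 ± 18.2 TPM, part of it from expressed chains that are not reported here. The levels below thus give neither the full order of the family nor its trimers. LAMC1 was at 315, 311, 306 and 299 TPM and LAMB1 at 254 ± 6.59 TPM. LAMB2, the beta chain of the mature glomerular basement membrane, was at 65.6 ± 3.02 TPM, so that LAMB1 was 3.88 ± 0.117 times above it. The alpha chains given here were lower: LAMA3 was at 32.1 ± 0.846 TPM, LAMA1 at 7.80 ± 0.299 TPM and LAMA5, the alpha chain of the mature glomerular membrane, at 3.58 ± 0.305 TPM. LAMA3 stood above LAMA5 with all 3 gene lengths tried, but the order of LAMA1 and LAMA5 turned with the median transcript length. LAMB4 and LAMC3 had 14 counts each.

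**Figure D3:**
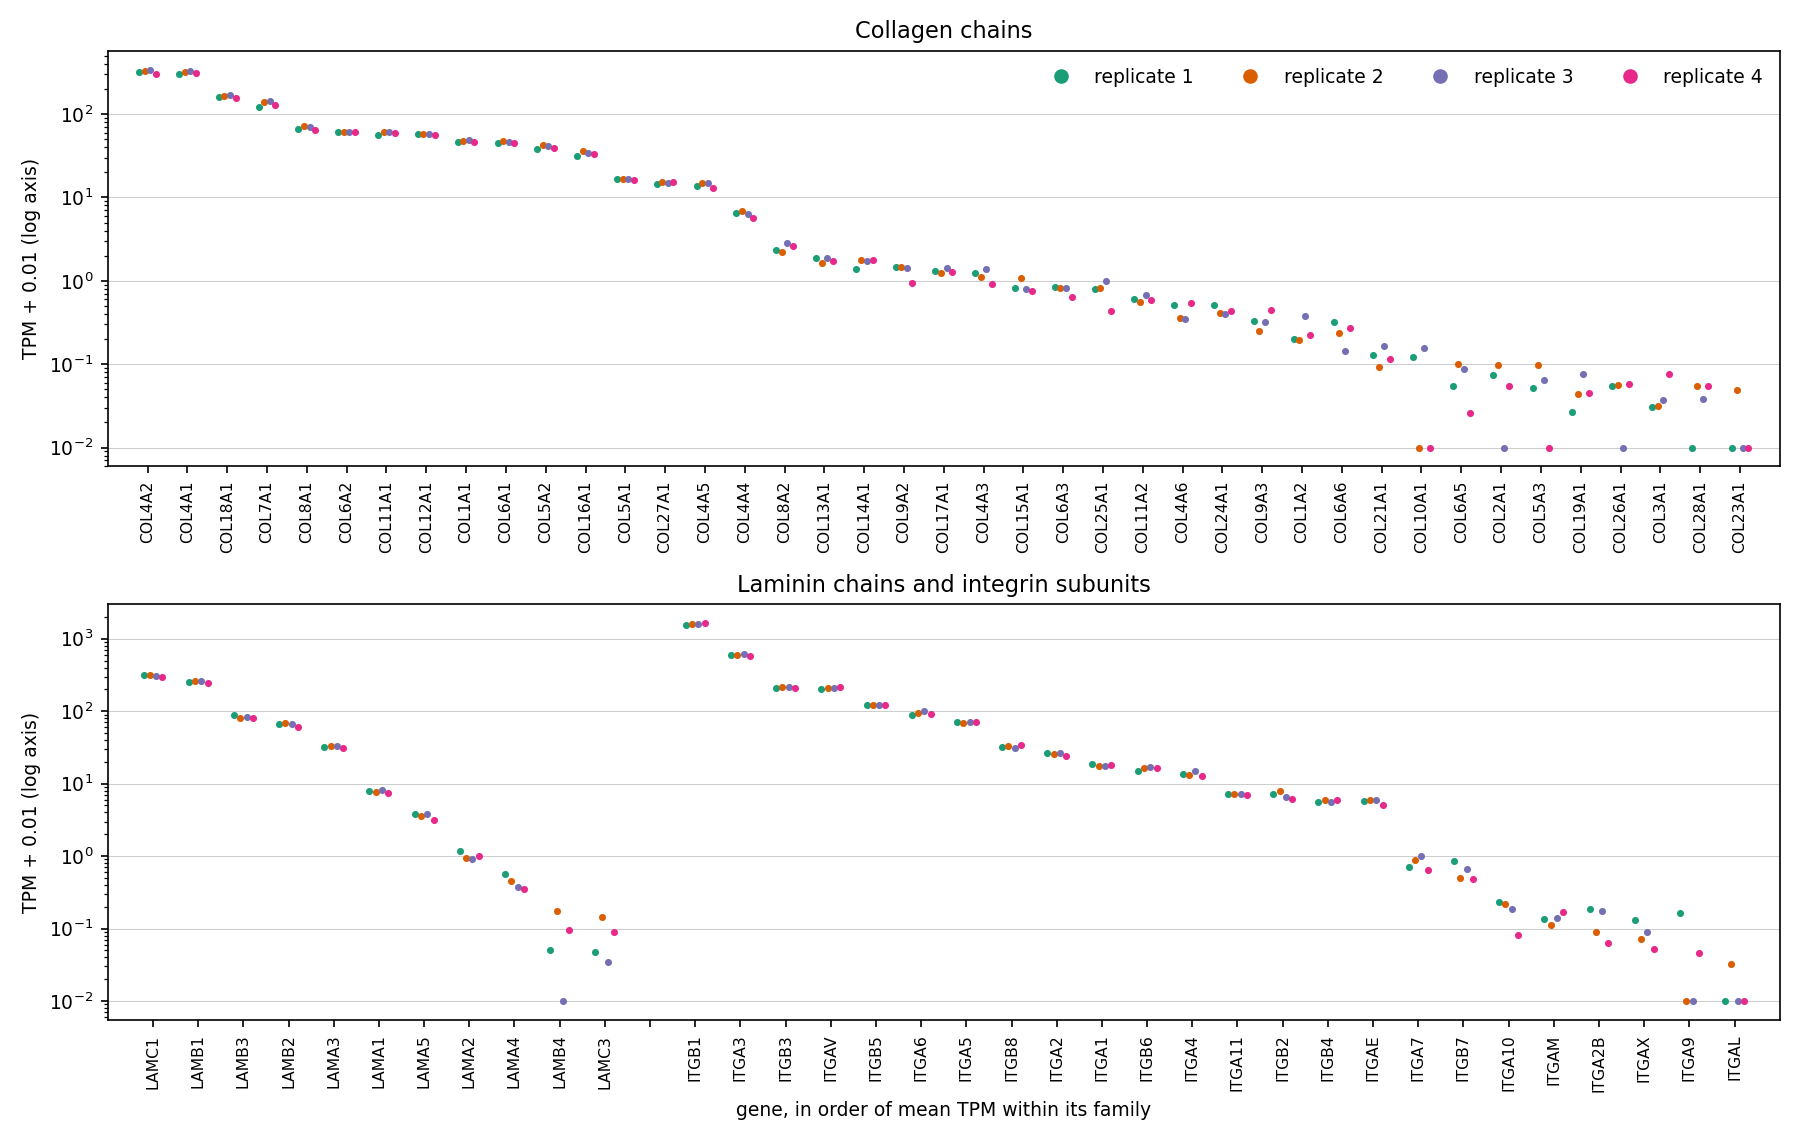
TPM plus 0.01 on a log axis for collagen chains (top) and for laminin chains and integrin subunits (bottom) with a count, with 1 point per control library and genes in order of mean TPM. COL4A2, COL4A1, LAMC1 and ITGB1 lead their families, and COL1A2 and COL3A1 lie far to the right of COL1A1.

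Of 26 subunits of integrins, the receptors that tie cells to this matrix, 17 were expressed (65.4%, beside 62.3% of all protein-coding genes). ITGB1, the common beta-1 subunit, was at 1526, 1601, 1602 and 1637 TPM, and ITGA3, which pairs with it as the laminin receptor of podocytes, was at 606, 589, 617 and 571 TPM. The ratio of ITGB1 to ITGA3 was 2.67 ± 0.152. ITGB3 (213 ± 5.399 TPM) and ITGAV (208 ± 4.15 TPM), which together form the vitronectin receptor, had overlapping ranges, and ITGB5 (121 ± 1.35 TPM) came next.

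Of 21 genes for crosslinking and remodelling the matrix 19 were expressed (90.5%, beside 62.3% of all protein-coding genes). PLAU, the urokinase gene, was at 1004 ± 7.61 TPM and the lysyl oxidase gene LOXL2 at 855 ± 15.03 TPM. TIMP2 was at 350 ± 8.71 TPM and TIMP1 at 229 ± 8.03 TPM, whereas TIMP3, an inhibitor bound to the matrix, had 0, 0, 1 and 0 counts. Of 23 matrix metalloproteases 8 were expressed, a smaller share (34.8%) than over all protein-coding genes. The membrane-bound MMP14 (896, 900, 890 and 889 TPM) was well above MMP24 (91.9 ± 2.24 TPM) and MMP2 (89.9 ± 4.08 TPM). The secreted collagenase gene MMP1 and the stromelysin gene MMP3 spread widely between libraries. MMP1 had 25, 28, 76 and 165 counts, or 0.922, 1.05, 3.6004 and 6.40 CPM. MMP3 had 5, 7, 43 and 147 counts, or 0.184, 0.263, 2.04 and 5.70 CPM. Both were highest in replicate 4 and next highest in replicate 3, and neither was expressed by the limit. The ADAMTS protease genes ADAMTS1 (207 ± 6.47 TPM), ADAMTS5 (166 ± 6.49 TPM), ADAMTS3 (127 ± 3.44 TPM) and ADAMTS12 (92.1 ± 3.33 TPM) led a family in which 10 of 19 were expressed (52.6%).

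Secreted signals were headed by chemokines that attract neutrophils. Of 47 growth factor and cytokine genes 39 were expressed (83.0%) and 5 near zero. CXCL1 was at 2607, 2424, 2387 and 2485 TPM and CXCL8 (ENSG00000169429.11, chromosome 4), interleukin-8, at 2045, 2053, 2039 and 2124 TPM. CXCL1 was above CXCL8 in each library per exon length, an order that turned with the median transcript length. CXCL6 (552 ± 22.3 TPM) and CXCL5 (531 ± 9.72 TPM) had overlapping ranges, CXCL2 was at 110 ± 3.59 TPM and CXCL3 at 20.5 ± 0.848 TPM. These CXCL genes lie on chromosome 4 and arose by duplication, so that their similar promoters are not independent of each other.

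The promoters of the 6 chemokine genes are shown because the family spans levels from CXCL3 to CXCL1 while sharing 1 short word. RefSeq promoter windows of GRCh38.p14 (250 bases before to 50 after the start) were searched on both strands for GGAATTTCC, a form of the NF-kB site, and the capitals mark that word in the 30 bases around it, written 5′ to 3′ along the gene's strand.
CXCL1: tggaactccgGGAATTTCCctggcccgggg
CXCL2: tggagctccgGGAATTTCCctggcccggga
CXCL3: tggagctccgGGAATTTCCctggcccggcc
CXCL5: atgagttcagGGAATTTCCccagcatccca
CXCL6: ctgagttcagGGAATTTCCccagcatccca
CXCL8: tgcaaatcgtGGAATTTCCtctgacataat
These lie at chr4:73869305-73869334 (plus strand) for CXCL1, chr4:74099253-74099282 (minus) for CXCL2, chr4:74038748-74038777 (minus) for CXCL3, chr4:73998748-73998777 (minus) for CXCL5, chr4:73836579-73836608 (plus) for CXCL6 and chr4:73740468-73740497 (plus) for CXCL8. The word starts 77 to 91 bases before the start of the gene. It occurs in 64 of 15310 protein-coding promoters (0.418%), and not in the windows of CCL20 or IL6, which says only that these letters are not there. A match is a description of the sequence and not a measurement of binding.

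Other cytokine genes were high as well. IL6 was at 890, 886, 896 and 883 TPM, among the smallest spreads of the list, GDF15, a stress-induced TGF-beta relative, at 915 ± 35.0 TPM, and CSF2, the granulocyte-macrophage factor, at 399 ± 7.15 TPM. CCL2, the monocyte attractant, was at 227 ± 14.4 TPM and CCL20 at 76.3 ± 4.11 TPM. Even TNF (471, 399, 332 and 394 counts) and IL1B (1562, 1397, 1105 and 1498 counts), upstream inflammatory cytokines, were above the limit. VEGFA, the factor by which podocytes maintain glomerular endothelium, was at 31.1 ± 0.911 TPM. BMP7, a survival factor of the nephron, had no count, HGF had 1 and IGF1 had 2.

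Among 25 hormone and vasoactive receptors 12 were expressed (48%, beside 62.3% of all protein-coding genes) and 5 near zero. The thrombin receptor gene F2R was at 81.7 ± 3.69 TPM, EGFR at 55.5 ± 1.65 TPM and the glucocorticoid receptor gene NR3C1 at 55.4 ± 1.19 TPM, the last 2 with overlapping ranges. IGF1R was at 28.7 ± 0.948 TPM. AGTR1, the main angiotensin II receptor, had 12, 11, 10 and 13 counts (0.458 ± 0.0393 CPM), and AGTR2 had none. INSR, the insulin receptor gene, was low among the expressed ones at 3.81 ± 0.666 CPM, and the vasopressin receptor gene AVPR2 had 2 counts in all.

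Of 261 transcription factor genes in the lists combined 145 were expressed (55.6%, beside 62.3% of all protein-coding genes) and 63 near zero. The AP-1 genes FOSL1 (368 ± 13.3 TPM), JUND (259 ± 12.4 TPM), JUN (196 ± 5.11 TPM) and FOSL2 (188 ± 4.80 TPM) were high beside PAX8, whereas FOS, their immediate early relative, had 7, 10, 11 and 2 counts. All 4 TEAD genes, the DNA-binding partners of YAP, were expressed, TEAD1 the highest at 96.7 ± 1.22 TPM. PAX6, a factor of eye and pancreas, was expressed at 10.99 ± 0.447 TPM, and the thyroid factor gene FOXE1 at 16.7 ± 0.490 TPM, both in every library. Of the 6 GATA genes GATA6 alone passed the limit (8.84 ± 0.5502 TPM), and none of the 6 IRX genes did. PBX3 (72.7 ± 0.497 TPM), a cofactor of HOX proteins, was expressed in every library.

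HOX genes, which record the position of a cell along the body axis, were widely expressed, 32 of 39, beside 62.3% of all protein-coding genes. HOXB7 was at 77.6, 76.2, 77.7 and 80.7 TPM, HOXB9 at 75.7, 72.5, 78.5 and 72.2 TPM and HOXB2 at 63.9 to 68.8 TPM. The ranges of HOXB7 and HOXB9 overlapped. In the HOXA cluster HOXA10 (57.7 ± 2.59 TPM) and HOXA9 (52.5 ± 3.66 TPM) were highest, in the HOXC cluster HOXC10 (40.7 ± 1.60 TPM), and in the HOXD cluster HOXD4 (16.3 ± 1.61 TPM). Summed over clusters, paralog groups 7, 9 and 10 reached 101, 143 and 103 TPM, against 22.8 TPM for group 11 and 3.73 TPM for group 13. Neither gene of group 12 had a count, and of group 13 HOXC13 alone was expressed (2.71 ± 0.614 TPM). Antisense transcripts run through these clusters, and their reads cannot be told apart without the strand setting.

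**Figure D4:**
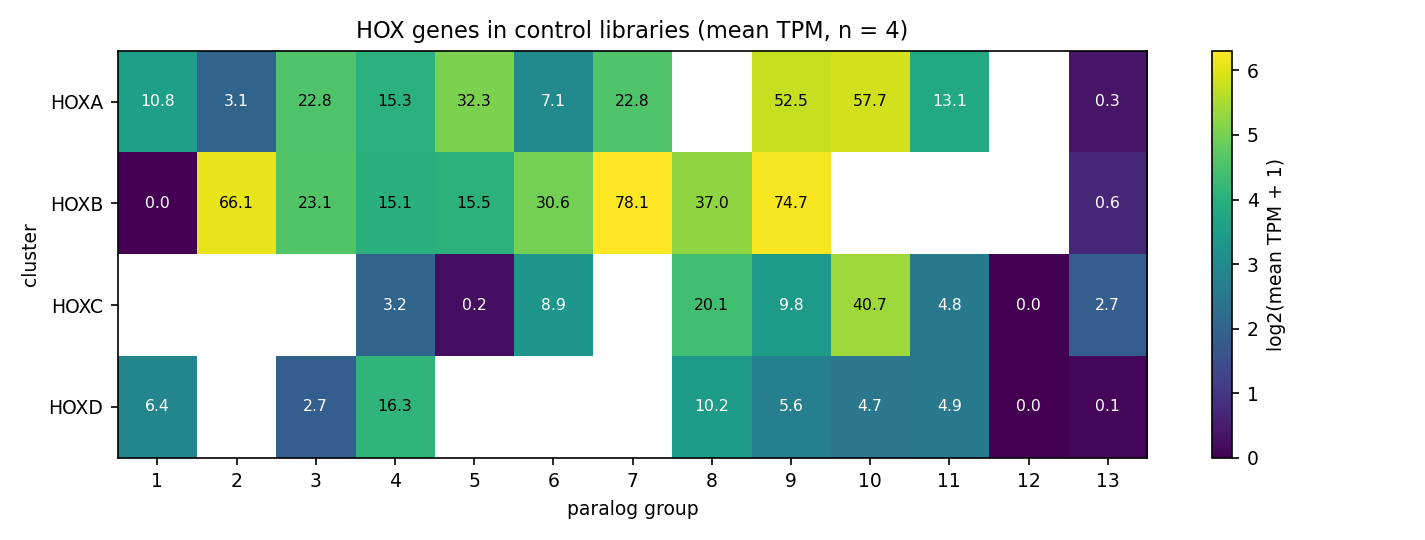
Mean TPM (n = 4) of each HOX gene by cluster (rows) and paralog group (columns), with color on a log2(TPM + 1) scale and white where there is no gene. HOXB7 (78.1), HOXB9 (74.7) and HOXB2 (66.1) have the highest values, HOXA10 and HOXC10 the highest of their clusters, and both group 12 genes are at 0.

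Of 385 solute carrier genes 219 were expressed (56.9%, beside 62.3% of all protein-coding genes) and 96 near zero. SLC25A5, the ADP/ATP exchanger of mitochondria, led at 798 ± 27.7 TPM, and the mitochondrial SLC25 family had 39 of 48 genes expressed. Of other families, SLC22 had 7 of 22 genes expressed, SLC5 2 of 12, SLC12 7 of 9 and SLC4 6 of 10. The lactate carrier gene SLC16A1 was at 234 ± 7.76 TPM and SLC16A3 at 93.6 ± 2.27 TPM. Their ratio was 2.49 ± 0.0712, but 1.63 with the longest and 1.16 with the median transcript. For glucose, SLC2A1 was at 122, 122, 124 and 121 TPM and SLC2A3 at 16.04 ± 0.910 TPM, while the insulin-responsive carrier gene SLC2A4 had 0, 2, 0 and 2 counts and the sodium-coupled SLC5A1 had none. Glutamine carriers were well represented by SLC38A2 (144 ± 4.75 TPM), SLC1A5 (129 ± 5.50 TPM) and SLC38A1 (119 ± 2.32 TPM).

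Among 23 ion pumps, cotransporters and mechanosensitive channels 20 were expressed. The pump subunit genes ATP1B1 and ATP1B3 were at 179 ± 4.01 and 165 ± 3.04 TPM, an order that turned with either transcript length. The stretch-gated channel gene PIEZO1 was at 77.9, 71.5, 73.7 and 69.8 TPM, whereas its relative PIEZO2 had 1 count. Of 25 TRP channel genes 14 were expressed (56%, beside 62.3% of all protein-coding genes). The polycystin gene PKD2 was at 64.3 ± 1.43 TPM, TRPC4 at 40.4 ± 1.84 TPM and TRPM7 at 31.3 ± 0.750 TPM. The podocyte channels TRPC6 and TRPC5 had 1 count each in all. Potassium channel subunits were mostly low, 26 of 95 expressed, with KCNJ16 (66.0 ± 3.54 TPM) and KCNS3 (51.1 ± 2.41 TPM) highest. Of 15 aquaporins AQP1 and AQP11 (2.62 ± 0.342 TPM) were expressed. Of 45 ABC transporters 28 were expressed (62.2%, beside 62.3% of all protein-coding genes). They were led by ABCF1 (91.5 ± 2.21 TPM) and ABCE1 (73.9 ± 2.69 TPM), which work in translation, and ABCC1 (46.8 ± 1.17 TPM), an exporter of drugs.

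All 31 listed cell cycle genes were expressed after 5 days at 37 °C. CDKN1A, the inhibitor p21, was at 1193, 1244, 1272 and 1282 TPM and PCNA, the replication clamp, at 1106 ± 43.7 TPM. Mitotic genes were present beside them, with TOP2A at 232 ± 4.47 TPM and MKI67, which encodes Ki-67, at 102, 96.6, 94.8 and 89.9 TPM. TERT, the telomerase gene that most somatic cells lack, was at 116, 106, 112 and 110 CPM. The counts do not separate the endogenous gene from the telomerase transgene of the line.

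Promoters of expressed genes differed in base composition from those of genes near zero, in the 15310 protein-coding genes with a RefSeq window. The median number of CpG pairs per 300 bases was 26 in 10076 expressed genes and 5 in 3319 genes near zero. The word TATAAA, searched on the gene's strand from 40 to 16 bases before the start, was in 1.53% of the expressed and 9.37% of the near-zero promoters. These shares describe the windows and are not tested.

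The 4 libraries agreed closely. Pearson's r of log2 CPM across expressed genes was 0.996 to 0.997 for the 6 pairs of libraries, as a description over genes, which are not independent. The chi-square per gene between libraries, over genes with 50 or more counts in a pair, was 1.92 to 2.497 for pairs among replicates 2, 3 and 4 and 4.07 to 4.83 for pairs with replicate 1, so that no pair agreed within sampling noise and none was merged. The coefficient of variation (CV) of CPM had a median of 4.56% over the 14067 expressed genes of all types, beside 3.79% from counting alone. Of 10212 genes with at least 1000 counts in all, 25 had a CV above 20% and 4 above 50%. Among the 10 most variable were read-through genes whose exons lie in other genes, such as ISY1-RAB43 with 0, 336, 166 and 619 counts and RPL17-C18orf32 with 59, 407, 348 and 291 counts, and their levels are uncertain. NME1-NME2 had 1047, 675, 394 and 647 counts. Of genes with at least 10000 counts the lowest CVs were those of the actin-bundling gene LCP1 (0.245%, beside 0.750% from counting alone), CSRP1, ETF1 and ARHGDIA. All of these lay under the CV that counting alone would give, so they do not show that these genes are steadier than others.

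**Figure D5:**
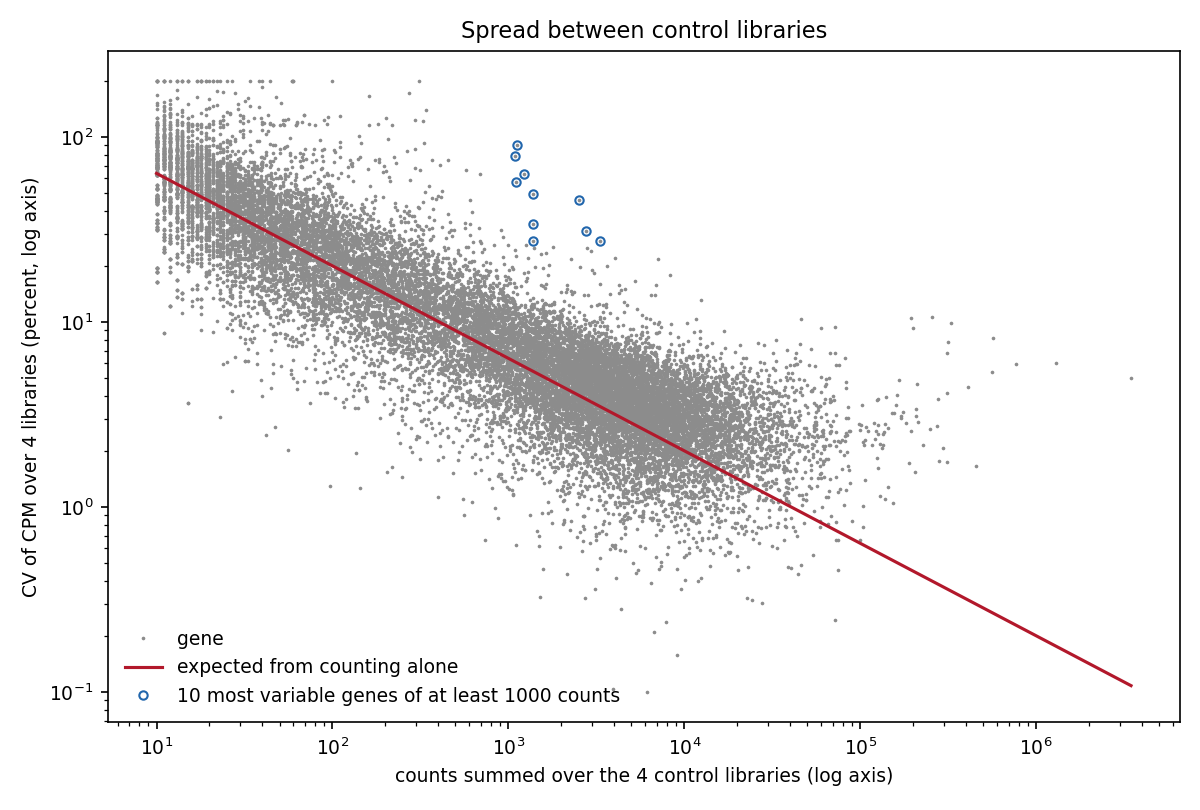
CV of CPM over the 4 control libraries (percent, log axis) against summed counts (log axis) for each gene of at least 10 counts, with the CV expected from counting as a line. Between 1000 and 10000 counts the median CV is 4.06% against 3.45% from counting, and the 10 most variable genes of at least 1000 counts are circled.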

How the data were processed

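Libraries were made with a directional kit from polyadenylated RNA, per the labels' protocols. The authors deposited 1 table of whole-number counts per gene, used as raw read counts. The submitters' processing notes name STAR, featureCounts, FastQC, DESeq2 and the build hg19. Versions, annotation, strand setting and the handling of shared reads: not given in the sources used here. Of 60609 rows, 1 with a missing cell and 44 pseudoautosomal copies without counts in these libraries were left out. Names came from a gene name table (60295) and GENCODE release 29 (250), and 19 genes had none. GENCODE 29 describes GRCh38, so it gave names, types, chromosomes and exon lengths, and no gene coordinates. CPM used library totals, TPM the union of exons, both scaled as the report states. Scripts ran in Python 3.11.15 and were tested on simulated data; TMM factors came from edgeR 4.0.16.

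Columns of the 4 knockdown libraries were not used. With 1 group no test between conditions was made. Members and lists were chosen with earlier results of these data known. Named by rule were up to 5 members per list with the highest TPM, all defining markers, lists of 15 or fewer genes, the 20 highest coding genes, 5 long noncoding genes and the 10 most variable genes. All other genes, such as near-zero members, MMP1, MMP3 and further members of a family, were chosen after their values were seen. Alternatives were other scalings, thresholds, filters, lengths and the omission of each library. Some genes that the rule names are not reported here.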

Additional observations from a re-analysis of the deposited data

Results flagged for a closer look

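Of 210 values tested (CPM of the genes named above that were expressed, and measures of the libraries), 15 had 1 library far from the other 3, where the gap to the nearest library over the range of all 4 exceeded Dixon's critical value; chance flags about 1 in 20 groups. Of these, 8 lay in replicate 1, 4 in replicate 4, 3 in replicate 3 and 0 in replicate 2. No cause was tested.

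In replicate 1 the 10 most abundant genes took 8.91% of counts, against 8.16% to 8.27% in the others, and the 100 most abundant took 21.3%, against 20.4% to 20.5%. The same library was high for KIRREL1, Neph1, at 642 CPM (others 615 to 618), for the AP-1 gene JUND at 134 CPM (others 121), for FOXC1 at 34.5 CPM (others 29.5 to 30.3) and for ITGB5 at 206 CPM (others 199 to 200.3). It was low for HOXA9 at 37.0 CPM (others 41.9 to 42.6) and for the glutamine carrier gene SLC38A2 at 235 CPM (others 247 to 248).

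Replicate 4 was low for MYH9, non-muscle myosin, at 2884 CPM (others 3116 to 3163) and for LAMA3 at 117 CPM (others 123). It was high for ITGAV at 454 CPM (others 434 to 437) and for MMP2 at 122 CPM (others 111 to 112). Replicate 3 was low for VCAM1 at 55.7 CPM (others 61.6 to 61.9), for ZEB2 at 90.7 CPM (others 95.2 to 96.0) and for PBX3 at 83.7 CPM (others 85.1 to 85.3).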

How the results depend on the processing

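Of 434 recomputed counts and spreads, 419 stayed within 1.5 times the value reported (or, for the spread, close to it). The exceptions came from the limit for an expressed gene. With at least 1 count in every library in place of 1 CPM, expressed members went from 6 to 10 for proximal tubule, from 1 to 7 for distal nephron, from 4 to 9 for endothelial, from 2 to 6 for leukocyte and from 2 to 8 for other-organ markers, from 10 to 19 for keratins, from 7 to 13 for claudins, from 8 to 13 for cadherins, from 8 to 16 for metalloproteases, from 2 to 5 for aquaporins, from 26 to 48 for potassium channels and from 3 to 7 for olfactory receptors. The distal count was 2 at 0.5 CPM and 0 at 2 CPM, where the aquaporin count was 1. Over all genes the expressed count ran from 12967 to 20486, and without 1 library from 14143 to 14171 (12421 to 12435 for protein-coding genes). The median CV was 3.96% to 4.45% without 1 library, lowest without replicate 1.

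Levels per length depend on the length taken. Of 203 expressed genes named in the text, 10 moved beyond 1.5-fold with the longest transcript, all upward and up to 2.45 times (TPM1). With the median transcript 147 moved, 73 of them upward, from 0.255 times (HOXC13) to 8.16 times (MBP). The TPM total was also recomputed with each length, which shifts the scale of all genes together. Several genes, such as HOXC13, FTL, JUN and SNAI1, stood at nearly the same 0.255 times, so the 147 do not all reflect a gene's own length. None moved so far when 1 library was left out. With protein-coding nuclear genes alone in the total every TPM was 1.33 times as high. Depth leaves levels under about 0.1 CPM unresolved in a single library. No paired analysis was possible because no groups were compared.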
